A study of Mus musculus with 3 samples.

Results

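The genes described here are 48 genes of mitosis and the kinetochore, followed in YFP (+) cells of the mouse lumbar spinal cord. They were taken by symbol from a list of known mitosis genes, which was chosen with earlier results of these data known. All 48 were found among the 27998 genes of the deposited count table. They sit on 16 chromosomes, with 9 of them on chromosome 2, so the list follows function and not position. Sorted by what their products do, they fall into 9 groups of 2 to 8 genes, and Aurkb, Bub1 and Ttk each count in 2 groups.

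The cells came from young adult Cx3cr1-creER-yfp/+ mice of the C57BL/6 strain, in which YFP is driven from the Cx3cr1 locus that microglia use. According to the labels and methods there were 3 conditions, naive animals and animals taken 24 h or 48 h after transection of the sciatic nerve, with 3 animals pooled into 1 droplet library for each. Every mouse carried the same 1 reporter allele, and animals at the later time point and with conditional knockouts were not analysed here. The 3 libraries were deposited as 1 table in which cells differ by a barcode suffix of 1, 2 or 3, and no source used here ties a suffix to a condition. They are called library 1, 2 and 3, their time point is unknown, and with 1 library each no test between them was possible.

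When a cell divides, Cdk1 with cyclin A and cyclin B drives it into mitosis, condensin packs the chromosomes, and the kinetochore, a protein assembly on each centromere, ties them to spindle fibres. The spindle checkpoint holds the cell until every chromosome is attached. The anaphase-promoting complex then marks cyclin B for destruction, and the central spindle and cleavage furrow part the daughter cells. Most of these genes are transcribed late in the cell cycle, after replication genes, and adult microglia at rest divide seldom.

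Many promoters of this kind are known to carry a cell cycle homology region, or CHR, near the transcript start together with CCAAT boxes upstream of it, the first read by the MuvB core with B-Myb or FOXM1 and the second by NF-Y. The following stretches, from 100 bases before to 30 bases after the annotated start, are shown because they let the reader see these letters in the genes whose counts are described next. They are RefSeq sequences of GRCm38.p6, written 5′ to 3′ along the transcript. Capitals mark CCAAT or its reverse ATTGG, and the CHR letters TTTGAA, their reverse TTCAAA, or TTCGAA.
Top2a, chr11:99024160-99024289, minus strand: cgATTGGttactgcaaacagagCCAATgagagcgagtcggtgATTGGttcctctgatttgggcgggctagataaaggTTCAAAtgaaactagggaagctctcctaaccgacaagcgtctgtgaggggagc
Cdk1, chr10:69352883-69353012, minus strand: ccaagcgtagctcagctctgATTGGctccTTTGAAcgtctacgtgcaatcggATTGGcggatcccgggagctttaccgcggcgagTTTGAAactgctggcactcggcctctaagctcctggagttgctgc
Ccnb2, chr9:70421525-70421654, minus strand: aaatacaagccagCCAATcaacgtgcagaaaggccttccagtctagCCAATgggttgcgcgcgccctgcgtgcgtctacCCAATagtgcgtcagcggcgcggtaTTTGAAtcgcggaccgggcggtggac
Ube2c, chr2:164769829-164769958, plus strand: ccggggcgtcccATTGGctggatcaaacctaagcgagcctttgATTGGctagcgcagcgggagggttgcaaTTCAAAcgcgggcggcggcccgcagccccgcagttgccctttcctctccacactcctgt
Cdc20, chr4:118437314-118437443, minus strand: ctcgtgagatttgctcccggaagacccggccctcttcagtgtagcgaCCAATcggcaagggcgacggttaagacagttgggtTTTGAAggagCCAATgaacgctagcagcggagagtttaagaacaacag
Cks1b, chr3:89418262-89418391, minus strand: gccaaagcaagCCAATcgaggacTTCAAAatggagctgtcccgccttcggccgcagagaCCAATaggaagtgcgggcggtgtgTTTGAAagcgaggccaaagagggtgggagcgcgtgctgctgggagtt
Birc5, chr11:117849137-117849266, plus strand: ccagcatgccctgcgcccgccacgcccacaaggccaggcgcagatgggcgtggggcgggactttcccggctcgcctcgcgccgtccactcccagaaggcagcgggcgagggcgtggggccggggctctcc

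Birc5 is printed as the contrast, since neither set of letters occurs in this stretch. Bases more than 50 after the annotated start were not searched in any gene, so letters there would be missed. Of the 48 members, 40 had an entry in the RefSeq promoter table, which covers 250 bases before to 50 bases after the start (Casc5 under its newer symbol Knl1). Ccna2, Cdca2, Pbk, Aurkb, Tpx2, Spc24, Smc4 and Incenp had none. The CHR letters lay within 50 bases of the start in 29 of 40 members (72.5%, exact 95% binomial interval 56.1 to 85.4%), against 6.12% of the 27025 genes of the table searched in the same way on both strands. A CCAAT box lay in the window of 31 members (77.5%, 61.5 to 89.2%) against 41.1% of all genes, and 21 members (52.5%) held 2 or more against 13.3%. Both together, a CHR near the start and a CCAAT box in the window, occurred in 25 members (62.5%) and in 2.57% of all genes.

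In the 42 promoters of these 40 members the CHR letters were found most often in the 25 bases after the start (31% of promoters against 1.43% of all promoters), and CCAAT boxes between 75 and 50 bases before it and in the last 25 bases before it (35.7% in each bin against 6.99% and 4.05%). Birc5, Nusap1, Nuf2 and Mad2l1 held neither set of letters in the window. The 2 sets overlapped in 1 place in the member promoters. The median log2 ratio of level of library 2 over library 3 lay close with and without the letters. It was 3.44 with a CHR near the start (29 members, 2.02 to 5.40) and 3.43 without (11 members, 0.72 to 5.44). With a CCAAT box in the window it was 3.59 (31 members, 1.05 to 5.40), and without 3.38 (9 members, 0.72 to 5.44). Of the 40 members, Kif2c and Cks2 had the smallest ratios and Birc5 the largest, and none of them had a CHR near the start. A match is a string of letters in a window, and no binding was measured here.

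**Figure D1:**
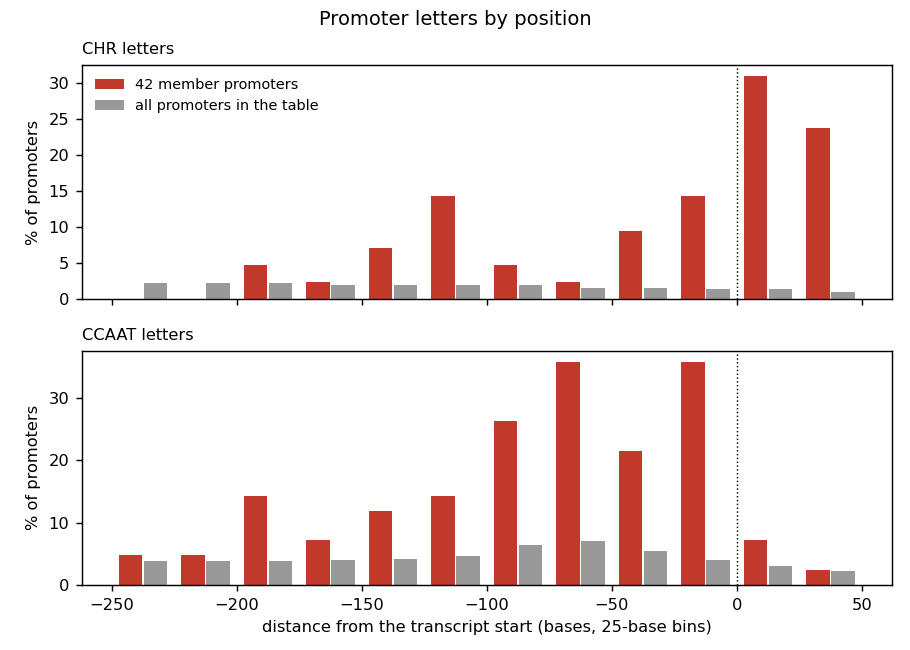
Share of promoters (y axis, percent) with the first base of the CHR letters (upper panel) or CCAAT letters (lower panel) in each 25-base bin of distance from the annotated transcript start (x axis, bases); red bars are the 42 member promoters and grey bars all promoters of the RefSeq table. Member promoters stand above the table near the start for the CHR letters (31% against 1.43% in the first 25 bases) and upstream of it for CCAAT.

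A unique molecular identifier, or UMI, tags each captured transcript, so the table counts transcripts and not reads. Levels are counts per 1000000 UMIs of a library (CPM), with exact Poisson 95% intervals, and shares of cells were taken after every cell was thinned at random to 2000 UMIs, with exact binomial 95% intervals. Both intervals cover counting error only and not the spread between animals. The Poisson intervals also leave out the clustering of UMIs within cells. Medians per cell were 2218, 5952 and 5742 UMIs over 609, 3591 and 3322 cells, so 3 UMIs, the limit set for a count of 0, stand for 2.23, 0.124 and 0.152 CPM. Thinning left 408, 3569 and 3284 cells. Barcodes shared between libraries numbered 5, 3 and 19 for the pairs 1 and 2, 1 and 3, and 2 and 3. Microglia markers such as P2ry12 and Tmem119 were present in every thinned cell of all 3 libraries as a summed list of 11, at 26167 to 32472 CPM, while the summed lymphocyte list ranged from 0.658 to 14.5 CPM and the erythroid list from 0 to 20.4 CPM, both highest in library 2. Without the cells holding a lymphocyte or erythroid UMI, the members' summed level was 140, 1984 and 178 CPM in libraries 1, 2 and 3. The part of such transcripts in the members' values was not tested. Library 3 held 29015 CPM of 16 immediate early genes against 2232 and 2987 CPM in libraries 1 and 2. When these, the heat shock and the mitochondrial genes were taken out of the totals, the members stood at 2035 CPM in library 2 and 185 CPM in library 3.

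The 48 members were found mainly in library 2. Summed, they gave 187 UMIs in library 1 (139 CPM, 120 to 161), 48017 in library 2 (1993 CPM, 1975 to 2011) and 3489 in library 3 (176 CPM, 171 to 182). Library 2 thus stood 11.3-fold above library 3 (10.9 to 11.7) and 14.3-fold above library 1 (12.4 to 16.6), while library 3 stood 1.27-fold above library 1 (1.09 to 1.48). These intervals treat UMIs as independent, although 1 cell of library 1 held 20.9% of the member UMIs of that library. In bulk sums of this kind, more cells that hold a transcript and more transcript per cell cannot be told apart, which is why the cells are described one by one further on.

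Gene by gene, 47 of the 48 members were at least 2-fold higher in library 2 than in library 3, with a pseudocount of 1 CPM, and Kif2c was the exception. Of all 9504 genes with a mean of at least 5 CPM over the libraries, 2.45% passed the same rule. Among the 40 members with that mean it was 39. Without that filter, 1.57% of all 27998 genes passed. The filter leaves 40 of the members, and the 8 others lie below it. For 34 of the 40, the levels in libraries 1 and 3 alone fall short of the filter, so passing it hung on library 2. The members were also chosen with earlier results of these data known, so their excess over all genes is a description and not a test. Over library 1, all 48 members were at least 2-fold higher in library 2, and so all 40 past the filter. By that rule 5.2% of all genes past the filter were higher, and 3.25% of all 27998 genes. Between libraries 3 and 1 the members were mixed, with 6 of the 40 past the filter at least 2-fold higher in library 3 and 2 lower, where 3.97% of all genes were higher and 6.13% lower. These calls rest on few UMIs in library 1: 0 for Birc5 and Ndc80, 1 for Kif2c, 2 for Cdca8 and Spc25, and 6 for Cks1b. The 2 lower members, Cenpf and Aurkb, held 8 and 5 there. With the limit of 3 UMIs for a count of 0, the lower bounds for Birc5 and Ndc80 were 0.770-fold and 0.589-fold. Neither count is read here as a result about the members. With a pseudocount of 5 CPM the 6 became 2, where 2.39% of all genes past the filter were higher. The median log2 ratio of the 48 was 3.52 for library 2 over 3, 3.72 for 2 over 1 and 0.08 for 3 over 1, beside 0.03, −0.10 and −0.11 over all genes past the filter.

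**Figure D2:**
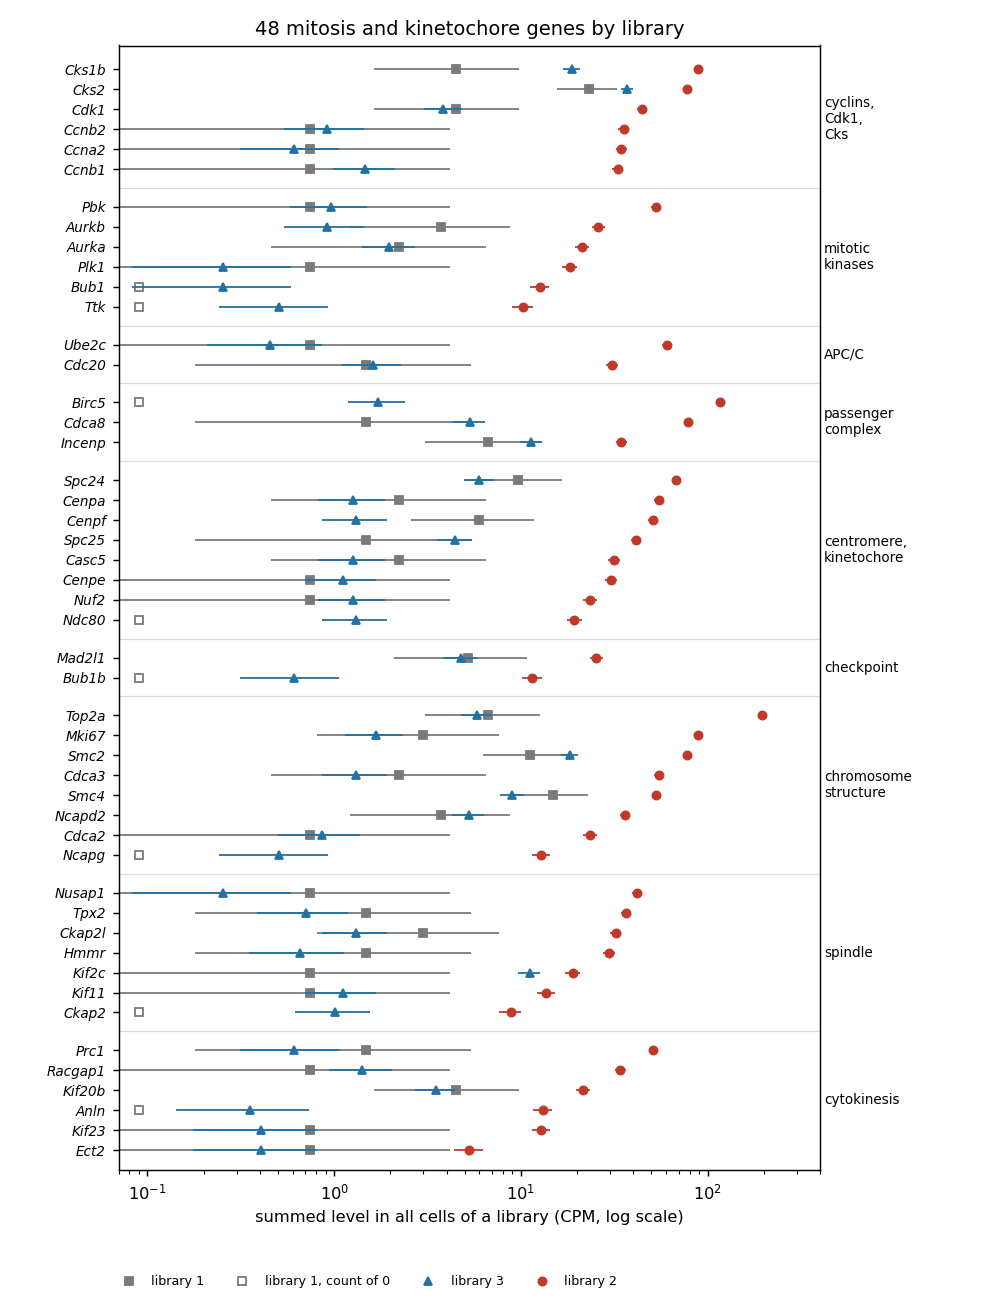
Level of each of the 48 members (rows, grouped by role) in library 1 (grey squares), library 2 (red circles) and library 3 (blue triangles), in CPM of all cells summed on a log axis, with exact Poisson 95% intervals as bars; open squares at the left edge mark a count of 0 in library 1, and Aurkb, Bub1 and Ttk are drawn with the kinases. Every red circle lies to the right of the other 2 marks, from Ect2 at 5.27 CPM to Top2a at 195 CPM, and Kif2c has the blue mark closest to the red one.

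The members that carry the contrasts below lie as follows in GENCODE M21 on GRCm38, and 3′ UMIs come from the exonic end of each transcript. Members with a ratio of library 2 over library 3 above 30 include Top2a (ENSMUSG00000020914, chr11:98992943-99024189, minus strand), Mki67 (ENSMUSG00000031004, chr7:135689784-135716361, minus strand), Birc5 (ENSMUSG00000017716, chr11:117849251-117855743, plus strand), Ube2c (ENSMUSG00000001403, chr2:164769898-164778822, plus strand) and Nusap1 (ENSMUSG00000027306, chr2:119618298-119651244, plus strand). The members with the smallest difference between libraries 2 and 3 are Cks2 (ENSMUSG00000062248, chr13:51645232-51650660, plus strand), Cks1b (ENSMUSG00000028044, chr3:89415472-89418383, minus strand), Smc2 (ENSMUSG00000028312, chr4:52439243-52488260, plus strand), Incenp (ENSMUSG00000024660, chr19:9872296-9899551, minus strand) and Kif2c (ENSMUSG00000028678, chr4:117159639-117182639, minus strand). Incenp overlaps AC132253.8, Kif11 AC137605.4, Ncapd2 Gm28967 and Anln Gm48646 on the same strand, so how UMIs were assigned within those pairs is uncertain.

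The chromosome genes held the highest count. Top2a, the topoisomerase that untangles sister chromatids, gave 9, 4708 and 115 UMIs in libraries 1, 2 and 3 (6.70, 195 and 5.82 CPM), was found in 25.9% of library 2 cells (24.5 to 27.4%) and was 33.6-fold higher there than in library 3 (27.9 to 40.8). Mki67, which encodes the Ki67 protein that coats mitotic chromosomes and serves as a proliferation marker, gave 4, 2143 and 33 UMIs (2.98, 88.9 and 1.67 CPM), in 13.5% of library 2 cells (12.4 to 14.6%), a ratio of 53.3 to library 3 (37.8 to 77.6). Both genes were low in libraries 1 and 3, whose intervals overlapped. Smc2 and Smc4, the motor pair of condensin, behaved unlike these 2. Smc2 gave 15, 1859 and 360 UMIs (11.2, 77.1 and 18.2 CPM), with 11.3% of library 2 cells and a ratio of only 4.24 over library 3 (3.78 to 4.76). Smc4 gave 20, 1279 and 177 UMIs (14.9, 53.1 and 8.95 CPM), with 7.85% of cells and a ratio of 5.93 (5.06 to 6.98). The other condensin subunits split, as Ncapd2 of 870 UMIs was 6.86-fold higher (5.59 to 8.49) and found in 6.00% of cells. Ncapg, with 0, 309 and 10 UMIs (0, 12.8 and 0.506 CPM) and 2.02% of cells, was 25.3-fold higher (13.6 to 53.4) and at least 5.74-fold higher than in library 1. Cdca3, a factor in the turnover of mitotic entry regulators, gave 3, 1318 and 26 UMIs (2.23, 54.7 and 1.32 CPM), in 8.91% of cells and at a ratio of 41.6 (28.3 to 63.9). Cdca2, which brings a phosphatase to anaphase chromosomes, was found in 3.61% of cells with a ratio of 27.3 (16.9 to 47.2).

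Among the cyclins, Cdk1 and the Cks proteins, the kinase and its cyclins stood far apart between libraries 2 and 3, and the Cks genes less so. Cks1b and Cks2 encode small subunits that bind Cdk1 and help it to its substrates. Cks1b gave 6, 2138 and 371 UMIs (4.47, 88.7 and 18.8 CPM), was in 14.0% of library 2 cells (12.9 to 15.2%) and 3.32% of library 3 cells, and was 4.73-fold higher in library 2 (4.23 to 5.29). Cks2 gave 31, 1864 and 728 UMIs (23.1, 77.4 and 36.8 CPM), in 5.64%, 12.9% and 6.82% of cells, a ratio of 2.1 over library 3 (1.93 to 2.29) and 3.35 over library 1 (2.35 to 4.95), the smallest over library 1 of the 48. Cdk1 itself was in 0.735%, 7.09% and 0.487% of cells, with 44.4 CPM in library 2 and a ratio of 11.5 over library 3 (9.14 to 14.8). Ccna2, the cyclin of S phase and early mitosis, was in 5.69% of library 2 cells and 56.8-fold higher (32.3 to 110). The B cyclins of mitosis were found in 5.18% (Ccnb1) and 5.30% (Ccnb2) of cells, at ratios of 22.5 (15.5 to 33.8) and 39.0 (24.5 to 66.1), intervals that overlap.

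The mitotic kinases were low in libraries 1 and 3 throughout. Pbk, a kinase active in mitosis, led them at 8.10% of library 2 cells and a ratio of 54.9 over library 3 (35 to 91.5). Plk1, which drives centrosome maturation and mitotic entry, was found in 2.55% of cells with a ratio of 72.2 (30.7 to 223) that rests on 5 UMIs in library 3. Aurka, the spindle pole kinase, was in 3.28% of cells at a ratio of 10.7 (7.76 to 15.3), and Aurkb, the kinase of the passenger complex, in 3.7% at 28.5 (17.9 to 48.4). The checkpoint kinases closed the list. Ttk, which starts checkpoint signalling, gave 0, 247 and 10 UMIs (0, 10.2 and 0.506 CPM), 1.82% of cells and a ratio of 20.3 (10.8 to 42.8). Bub1, which recruits other checkpoint proteins to the kinetochore, gave 0, 304 and 5 UMIs (0, 12.6 and 0.253 CPM), 2.1% of cells and a ratio of 49.9 (21.1 to 155). Its relative Bub1b, a part of the inhibitor of the anaphase-promoting complex, gave 0, 277 and 12 UMIs (0, 11.5 and 0.607 CPM), 1.74% of cells and a ratio of 18.9 (10.7 to 37.1). Against the limit of 3 UMIs in library 1 these stood at least 4.59-fold (Ttk), 5.65-fold (Bub1) and 5.15-fold (Bub1b) higher in library 2. Mad2l1, the fourth checkpoint gene, differed least, with 4.29% of cells and a ratio of 5.32 (4.28 to 6.69).

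Of the anaphase-promoting complex, Ube2c, its ubiquitin-conjugating enzyme, gave 1, 1455 and 9 UMIs (0.745, 60.4 and 0.455 CPM). It was in 10.3% of library 2 cells (9.31 to 11.3%) and 0.0609% of library 3 cells, a ratio of level of 133 (69.7 to 291). Cdc20, the activator that recognises its substrates, was in 4.90% of cells at a ratio of 18.9 (13.3 to 27.9). The 2 intervals do not overlap.

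The 4 subunits of the chromosome passenger complex, which corrects faulty attachments and later guides cytokinesis, did not share 1 ratio. Birc5 (survivin) gave 0, 2819 and 34 UMIs (0, 117 and 1.72 CPM), in 17.5% of library 2 cells (16.3 to 18.8%), 68.0-fold above library 3 (48.6 to 98.4) and at least 52.4-fold above library 1. Cdca8 (borealin) gave 2, 1890 and 105 UMIs (1.49, 78.4 and 5.31 CPM), in 13.4% of cells (12.3 to 14.6%), at a ratio of 14.8 (12.1 to 18.1). Incenp, the scaffold on which the other subunits sit, gave 9, 831 and 224 UMIs, in 5.72% of library 2 cells and 2.59% of library 3 cells, at a ratio of 3.04 (2.62 to 3.54). Aurkb, at 28.5, lay between Birc5 and Cdca8. Relative to Birc5 and Aurkb, Incenp UMIs were thus common in library 3.

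At the centromere and kinetochore, all 8 genes were at least 9-fold higher in library 2 than in library 3, from Spc25 at 9.33 to Cenpa at 43.2. Cenpa, the histone H3 variant that marks the centromere, gave 3, 1316 and 25 UMIs (2.23, 54.6 and 1.26 CPM), in 8.66% of cells (7.76 to 9.63%), its ratio running from 29.1 to 67.0. Spc24, a part of the Ndc80 complex that holds spindle fibres, gave 13, 1628 and 118 UMIs (9.68, 67.6 and 5.97 CPM), in 11.7% of cells (10.6 to 12.8%), at a ratio of 11.3 (9.38 to 13.8). The 3 partners of Spc24 in that complex were Spc25 (6.84% of cells, ratio 9.33, 7.5 to 11.7), Nuf2 (3.61%, 18.6, 12.5 to 28.9) and Ndc80 (3.17%, 14.7, 9.89 to 22.7), whose intervals overlap that of Spc24 in each case. Cenpe, a kinetochore motor, was in 4.34% of cells at a ratio of 27.3 (17.9 to 43.8). Cenpf, a large protein of the outer kinetochore, was in 7.79% at 38.6 (26.2 to 59.3), and it was the member with the lowest log2 ratio of library 3 over library 1, −1.59 (1.32 against 5.96 CPM). Casc5, the platform for checkpoint proteins, was in 4.65% at 25 (16.8 to 38.9).

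Spindle genes held both the extreme ratios among the 48 when no pseudocount was added. With a pseudocount of 1 CPM the highest was Birc5, at a log2 ratio of 5.44, and Nusap1 stood at 5.10. Nusap1, which bundles spindle fibres, was in 6.50% of cells and gave 1009 UMIs against 5 in library 3, a ratio of 166 (70.7 to 511). Kif2c, a kinesin that takes microtubules apart at centromeres, gave 1, 457 and 220 UMIs (0.745, 19.0 and 11.1 CPM), in 3.19% of library 2 cells and 2.04% of library 3 cells, a ratio of 1.70 (1.45 to 2.01). Between them lay Tpx2, an activator of Aurka (5.80%, ratio 51.6, 30.6 to 94.8), Hmmr, a spindle pole protein (4.48%, 45.2, 26.3 to 85.4), and Ckap2l (4.76%, 24.5, 16.6 to 37.7). Kif11, the motor that pushes spindle poles apart, was in 2.21% of cells at a ratio of 12.2 (7.94 to 19.8). Ckap2, a microtubule-binding protein, gave 0, 212 and 20 UMIs (0, 8.80 and 1.01 CPM), in 1.23% of cells, at a ratio of 8.70 (5.49 to 14.5) and at least 3.94-fold above library 1.

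Among the 6 genes of cytokinesis, Prc1, which crosslinks the central spindle, was in 7.79% of cells at a ratio of 84.3 (48.1 to 164). Kif23 and Racgap1 form the centralspindlin complex and were found in 2.13% and 5.74% of cells, at ratios of 31.8 (15.9 to 74.3) and 24.1 (16.5 to 36.4). Anln, the furrow scaffold anillin, was in 2.55% at 36.9 (17.7 to 92.6), and Kif20b, a midbody kinesin, in 3.33% at 6.15 (4.77 to 8.02). Ect2, an exchange factor needed to form the cleavage furrow, had the lowest count of the 48, with 1, 127 and 8 UMIs (0.745, 5.27 and 0.405 CPM), in 0.953% of cells (0.661 to 1.33%), at a ratio of 13 (6.41 to 30.8). UMI counts of different genes also depend on how well each 3′ end is captured, so the order of counts within library 2 is not an order of transcript abundance.

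Since few members kept a level in library 3, its member UMIs belonged to a short list of genes. Cks2 held 20.9% of them (19.5 to 22.3%) but 3.88% of those of library 2, Cks1b 10.6% against 4.45%, Smc2 10.3% against 3.87%, Incenp 6.42% against 1.73% and Kif2c 6.31% against 0.952%. Top2a went the other way, with 3.30% in library 3 and 9.80% in library 2. In library 1, Cks2 also led with 16.6% of the 187 UMIs (11.6 to 22.7%), followed by Smc4 with 10.7% and Smc2 with 8.02%, whereas Kif2c had 1 UMI. Cks2, Smc2 and Smc4 were therefore prominent in both libraries of low member level, and Kif2c in library 3 without a like share in library 1, where its interval runs to 2.94%.

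At equal depth nearly every cell of library 2 held a member. At least 1 of the 48 was found in 18.1% of library 1 cells (14.5 to 22.2%), 93.1% of library 2 cells (92.2 to 93.9%) and 26.6% of library 3 cells (25.1 to 28.1%), and at least 3 in 0.245%, 49.1% and 0.670%. At least 10 different members were seen in 3.75% of library 2 cells (3.16 to 4.43%), against 0.0609% in library 3 and 1 cell in library 1. The mean was 0.265, 3.40 and 0.329 member UMIs per cell and the median 0, 3 and 0. A member was found in 5.24% of library 2 cells as the median over the 48, so the high share of cells with any member adds up from many low ones.

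The UMIs per cell in library 2 formed a broad peak at 1 to 4 with a tail to 30 UMIs. At most 22 different members were found in a cell. Counts of 6 or more were held by 528 cells (14.8%, 13.6 to 16%) and counts over 10 by 158 cells (4.43%, 3.78 to 5.15%). The variance was 3.11 times the mean, and 247 cells held none where a single Poisson rate gives 119, so the cells did not share 1 level. Cells with 1 to 5 member UMIs held 58.6% of the members' UMIs, and those with 6 or more held 41.4%. Leaving out the cells with 6 or more, a comparison added after the values were seen, took the summed level to 1334 CPM in library 2 and 169 CPM in library 3, still a ratio of 7.89.

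**Figure D3:**
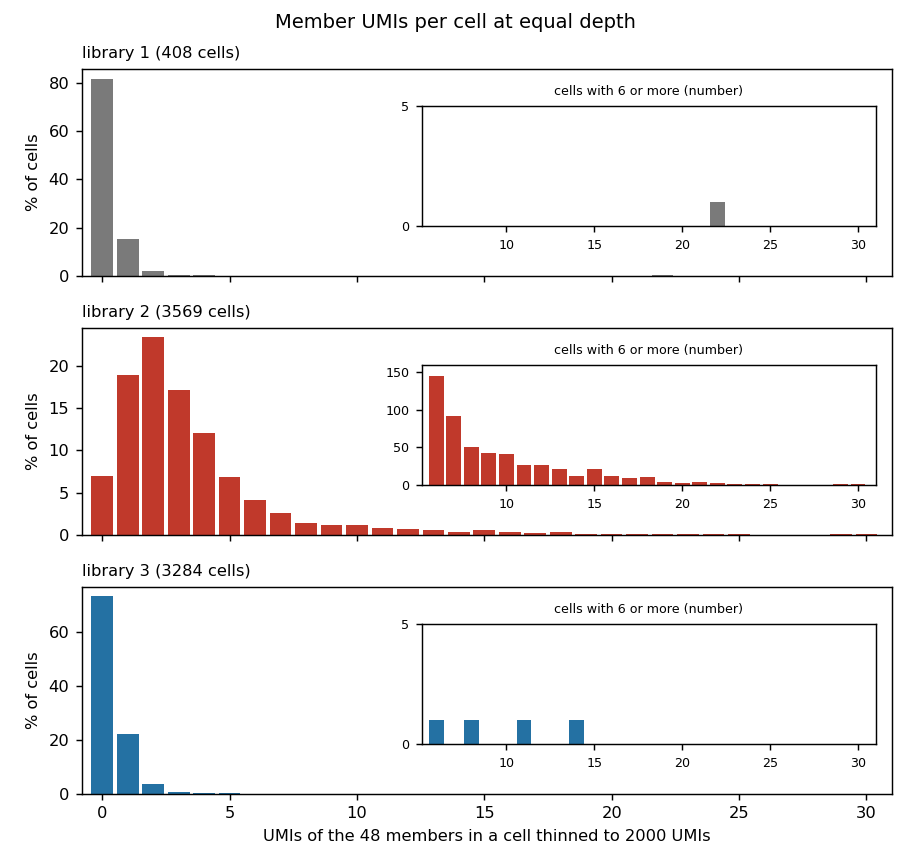
Share of cells (y axis, percent) by the number of member UMIs in the cell after thinning to 2000 UMIs (x axis), for library 1 (408 cells), library 2 (3569) and library 3 (3284); insets give the number of cells with 6 or more. Library 2 peaks at 2 member UMIs and tails to 30, while 81.9% of library 1 cells and 73.4% of library 3 cells hold none.

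Cells with few and with many member UMIs held nearly the same mixture of members within library 2. Over the 48 genes, each gene's share of the member UMIs in the 2794 cells with 1 to 5 (7113 UMIs) and in the 528 cells with 6 or more (5027 UMIs) went together with a Spearman correlation of 0.96, and 9.70% of the UMIs would have to change gene to make the mixtures equal. Against the 869 cells of library 3 with 1 to 5 member UMIs (1043 UMIs), the low cells of library 2 gave a Spearman correlation of 0.51, and 49.6% of UMIs fell on other genes. Genes are not independent replicates, and cells were split by the same members, so these values are descriptions. Birc5, for instance, held 6.19% of member UMIs in the low cells of library 2 (5.64 to 6.77%) and 5.25% in the high cells (4.65 to 5.90%).

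The remaining differences in mixture ran by gene. Ckap2, Ncapg and Kif23 took larger shares in the high cells, by 2.48-fold (1.29 to 4.90), 2.08-fold (1.28 to 3.42) and 1.91-fold (1.20 to 3.08), and Top2a rose from 9.12% to 11.1%. Spc24, Cks2 and Ube2c took smaller ones, at 0.663-fold (0.539 to 0.812), 0.697-fold (0.576 to 0.841) and 0.742-fold (0.600 to 0.916). Over all 48 members, 28 had a ratio above 1. Of the 15 members with a longest coding transcript of at least 4000 bases in GENCODE M21, 11 did, with a median ratio of 1.07. Of the 12 members under 2000 bases 4 did, with a median of 0.891. The rank correlation of ratio and length over the 48 was 0.40. For most members the interval of the ratio included 1, and the cells were split by the same counts. A link with length was therefore not tested.

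**Figure D4:**
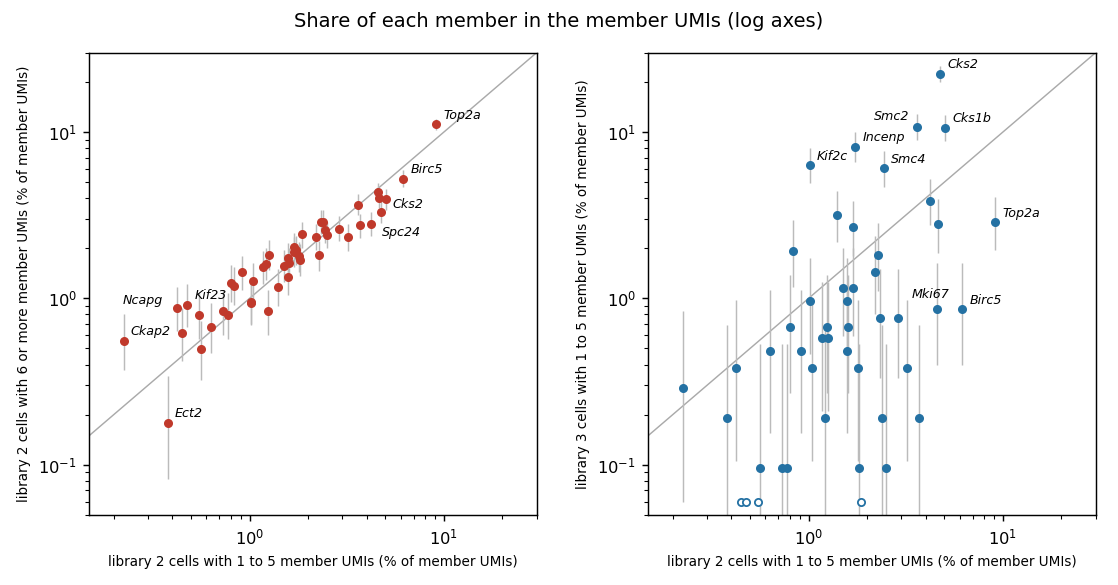
Each point is 1 of the 48 members, placed by its share of all member UMIs (percent, log axes) in library 2 cells with 1 to 5 member UMIs (x axes) and in library 2 cells with 6 or more (left y axis) or library 3 cells with 1 to 5 (right y axis); vertical bars are exact binomial 95% intervals, the line marks equal shares, and open points have no UMI. The left points follow the line (Spearman correlation 0.96), while on the right Cks2, Smc2, Cks1b, Incenp and Kif2c lie above it and Birc5, Mki67 and Top2a below.

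In droplet data, free RNA adds UMIs to cells that do not express a gene, and its level was not measured. Cells were not grouped into types here, so no group that should lack the members was at hand for that. Cells of library 2 with UMIs of at least 2 erythroid genes (50 cells) held a mean of 3.61 member UMIs, those with 2 or more neutrophil genes (12 cells) 3.83, with 2 or more oligodendrocyte genes (165 cells) 4.11 and with 2 or more astrocyte genes (48 cells) 3.60, beside a mean of 3.40 over the library. The like cells of library 3 held 0.192 (27 cells), 0.364 (11 cells), 0.42 (112 cells) and 0.571 (28 cells). These cell numbers count all cells, whereas the means leave out any cell under 2000 UMIs. The 6 cells of library 2 with 2 or more lymphocyte genes stood higher, at 5.67, and mean lymphocyte UMIs were 0.0973 in cells with 6 to 10 member UMIs against 0.0127 to 0.0283 in the other bins. Such cells also carried microglia transcripts, so they are not pure populations, and their values cannot tell free RNA from expression. What part of the low counts of 1 to 5 is free RNA was not tested. Those counts are therefore not read here as expression in the cell.

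Genes of DNA replication, 63 in the list and none of them a member, separated cells mainly at high counts. Grouped by replication UMIs at equal depth, the 67 cells with none held a mean of 2.18 member UMIs (1.84 to 2.56), those with 1 to 2 held 2.61, those with 3 to 5 held 2.74, those with 6 to 10 held 4.36 and the 251 cells with over 10 held 7.11 (6.79 to 7.45). The share of cells with at least 6 member UMIs went from 1.49% to 56.6% over the same bins. The cells also differed in total UMIs before thinning, with medians of 5347 in the first bin and 8371 in the last. Mean member UMIs also differed with that total, although each cell was thinned to the same number, from 2.66 (2.49 to 2.83) in the 351 cells under 4000 UMIs and 2.44 (2.36 to 2.52) in cells of 4000 to under 6000 UMIs to 6.44 in cells of 12000 and over. In the window of 4000 to under 6000 total UMIs alone, the means were 2.33, 2.41 and 2.50 for 0 to 2, 3 to 5 and 6 to 10 replication UMIs, with overlapping intervals, and 4.46 (3.65 to 5.39) in the 24 cells with over 10. Depth and replication UMIs thus moved together with the members, and their separate parts were not tested.

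**Figure D5:**
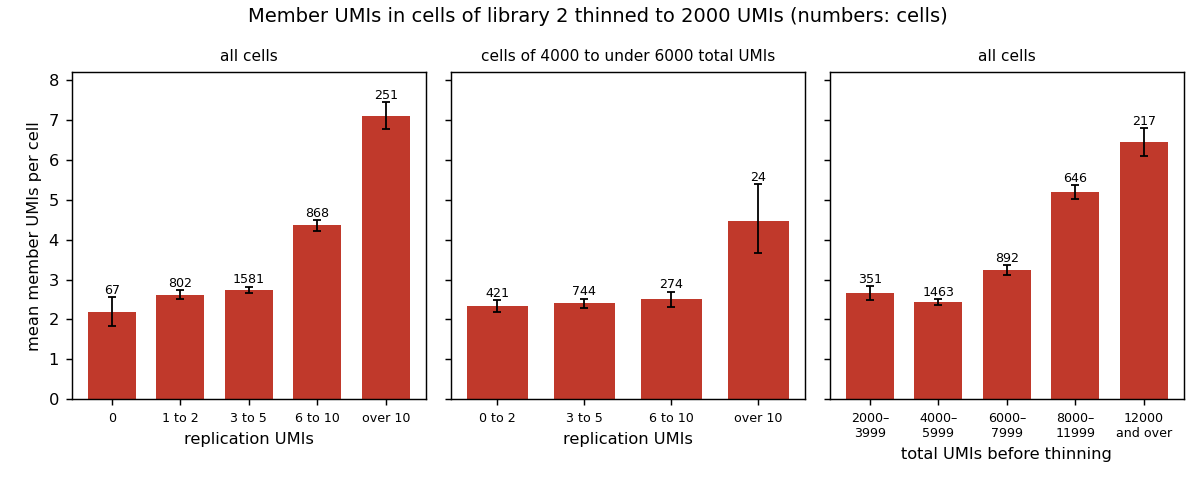
Mean member UMIs per library 2 cell after thinning to 2000 UMIs (y axes), by replication UMIs in all cells (left), by replication UMIs in cells with 4000 to under 6000 total UMIs (middle) and by total UMIs before thinning (right); error bars are exact Poisson 95% intervals and numbers above bars are cells. Means rise from 2.18 to 7.11 on the left, on the right they go from 2.66 to 2.44 and then up to 6.44, and in the middle they stay between 2.33 and 2.50 up to the last bin at 4.46.

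The cells with most member UMIs differed in other readouts as well. From the 247 cells without a member UMI to the 158 with over 10, median total UMIs went from 5676 to 9875, mean replication UMIs from 4.06 to 8.58 and mean UMIs of 79 other mitosis genes from 2.79 to 8.18. Summed microglia markers went from 55.0 to 48.9 of the 2000 UMIs. Cells with 1 to 2 member UMIs were close to those with none in all of these, at 5679 total, 4.02 replication, 2.74 other mitosis and 54.3 microglia UMIs. Doublets could add to total UMIs. The methods state doublet exclusion in the sort, which does not remove cells caught together in a droplet, and without the 5% of cells with the most UMIs the members stood at 1818 CPM in library 2 and 165 CPM in library 3.

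With a cut of 3 UMIs for each list, 40.3% of library 2 cells (38.7 to 42%) held both member and replication UMIs, 10.4% members without replication (9.44 to 11.5%) and 35.3% replication without members. In library 3 these were 0.609%, 0.305% and 35.8%, where the intervals of libraries 2 and 3 overlap for replication alone (33.7 to 36.9% and 34.2 to 37.5%) and not for the classes with members. These classes are ranges of a count and not cell types, and the overlap for replication alone depended on the cut. With a cut of 6 the library 2 shares were 9.83%, 4.96% and 21.5%, and those of library 3 were 0.122%, 0% and 5.09%. The intervals for replication alone were then 20.2 to 22.9% and 4.36 to 5.89%, which do not overlap. At that cut, and with the gene in question left out of the sum, 43 of 48 members had more UMIs per cell in cells with both lists than in cells with members only. The interval of the ratio of members only over both lay below 1 for 12 of them and included 1 for 31. The like share over all genes was not taken, and the 2 classes were not matched for summed member UMIs. The 43 are therefore not separate results for single genes. Top2a gave 117 UMIs per 100 cells with both (105 to 130) and 52.1 with members only (41.0 to 65.3), and Aurkb gave 13.3 (9.71 to 17.7) and 4.68 (2.02 to 9.22). The 5 members with the higher value in cells with members only were Cks1b, Birc5, Ube2c, Cdc20 and Ccnb2, of which Ccnb2 had the largest ratio, 1.35 (0.810 to 2.23). The intervals of these 5 ratios include 1 as well.

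Members were found together more often than their single shares give. Over the 1128 pairs in library 2 cells at equal depth, the number of cells with both genes was above that for independent genes in 1026, with a median ratio of 1.53. The like share over pairs of other genes was not taken, so the 1026 are not read as a trait of the members. Pairs within a role (134) had a median of 1.58 and pairs across roles (994) 1.52. The 6 pairs among the subunits of the Ndc80 complex had a median of 1.53. They ran from 0.995 for Spc24 with Nuf2 (15 cells against 15.1) to 1.94 for Spc25 with Ndc80 (15 against 7.73). With so few pairs and cells, whether being in 1 complex sets a pair apart was not tested. Of pairs with at least 10 cells for independent genes, Nusap1 with Casc5 was highest at 2.87 (31 cells against 10.8). Any cell rich in members raises all such ratios at once.

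Over the 3569 cells of library 2, each member's UMIs correlated weakly with the sum of the others, from 0.01 for Ect2 to 0.38 for Top2a, with a median Pearson r of 0.16. The median with the replication sum was 0.09. At 1 or 2 UMIs per gene such values are no finding for single genes. The summed members gave an r of 0.38 with the summed replication genes and 0.51 with the summed other mitosis genes (Spearman correlations 0.28 and 0.26), and −0.17 with the microglia markers. The points are cells of 1 library that share depth and free RNA.

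The other genes of the pathway stood between the members and all genes. By the 2-fold rule without a filter, 1.57% of all 27998 genes were higher in library 2 than in library 3, the share to set beside the counts below. Of 79 further mitosis genes, 61 were at least 2-fold higher in library 2 than in library 3 and none lower. Their median log2 ratio was 1.96, and their sum was 2.49-fold higher (2.44 to 2.53). The 5 with the highest level were mixed, as Hjurp, the chaperone of Cenpa, had 61.1, 167 and 45.8 CPM in libraries 1, 2 and 3, whereas Bub3, a checkpoint protein, had 118, 152 and 119 CPM, and Pttg1 (securin) 71.5, 58.8 and 63.8 CPM. Ncaph2, of the second condensin, had 32.8, 80.2 and 51.6 CPM, and Fzr1, the other activator of the anaphase-promoting complex, 29.8, 52.7 and 42.1 CPM. Of 20 genes that regulate late cell cycle transcription 6 were at least 2-fold higher, with a median log2 ratio of 0.76. E2f1, which drives replication genes, had 2.23, 51.3 and 14.3 CPM, while E2f4, Lin37 and Lin9 of the repressing and activating complexes on CHR letters had 59.3, 52.8 and 36.6 CPM in library 2 and 65.5, 45.7 and 19.7 CPM in library 3, and Rbbp4 97.0 and 81.5 CPM. Of 63 replication genes 37 were at least 2-fold higher, with a median log2 ratio of 1.26. Tyms, which makes thymidylate, had 22.3, 119 and 23.9 CPM, and Slbp, Rfc2, Pcna and Rpa2 had log2 ratios of library 2 over library 3 of 0.68, 0.50, 0.54 and 0.91.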

How the data were processed

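The authors deposited 1 matrix of raw, unnormalized UMI counts that joins 3 droplet 3′ libraries of YFP (+) cells. The submitters' processing notes name Cell Ranger 2.1.1 and mm10, and the rule that called cells is not given in the sources used here. Labels give a version 3.1 reagent kit and the methods version 3. Deposited counts were summed per barcode suffix and scaled to CPM, or cells were set to 1 depth by drawing 2000 of their UMIs at random (seed 1), which left out 201, 22 and 38 shallower cells. Log2 ratios by gene used a pseudocount of 1 CPM, with a minimum mean of 5 CPM and a 2-fold rule in place of a test. Other ratios are of CPM without a pseudocount, with exact conditional binomial 95% intervals, and shares have Clopper-Pearson intervals. A count of 0 was set to 3 counts for lower bounds. All deposited cells were kept and no doublet caller was run. Members and gene lists were chosen with earlier results of these data known. Named are all 48 members, the 12 highest and 6 lowest by library 2 UMIs in full, the 5 highest genes of the 3 pathway lists, and the 10 genes best correlated with the summed members. Gene positions and transcript lengths are those of GENCODE M21 and promoters those of RefSeq on GRCm38.p6, the build called mm10. As a check of orientation, the bases after the start of 14 of 18 plus strand and 21 of 24 minus strand member promoters were found in GENCODE transcripts. Steps were tested on simulated data. Analyses ran in Python 3.11.15 with pandas 2.3.3, numpy 2.4.6, scipy 1.17.1 and matplotlib 3.10.9. Alternatives tried were other cell filters, depths, seeds, cuts, pseudocounts, totals and folds.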

Additional observations from a re-analysis of the deposited data

How the results depend on the processing

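Of 69 alternatives, 31 left a value within its bound, and 38 moved it. The bound was the counting interval, a factor of 1.5 for counts of members, or the standard deviation over the members for the median r. Whether a direction turned was not scored. Cells with at least 3 members made 94.3% of library 2 and 7.65% of library 3 without thinning, 11.1% (1 of 9 cells), 88.4% and 2.54% of libraries 1, 2 and 3 at 4000 UMIs, 20.5% and 0.331% of libraries 2 and 3 at 1000 UMIs, and 50.8% of library 2 with another seed. At least 5 members were in 19.0% and 0.122% of libraries 2 and 3. Without the 5% of cells with the most UMIs library 1 had 0% such cells, which allows up to 0.974%, and a summed level of 110 CPM, with 1818 and 165 CPM in libraries 2 and 3. Cells weighted equally gave 1732 and 167 CPM in libraries 2 and 3, totals without early, heat shock and mitochondrial genes 2035 and 185 CPM, and leaving out cells of 6 or more member UMIs 111, 1334 and 169 CPM in the 3 libraries. At least 2 UMIs of Top2a, Mki67 and Cdk1 were in 5.69%, 1.51% and 0.532% of library 2 cells. At 4000 UMIs they were in 42.2%, 24.8% and 13.9%, and without thinning in 53.7%, 35.1% and 21.2%. Cells with both lists made 14.6% at a cut of 5 and 87.9% at 4000 UMIs, and cells with members only 7.0%, 1.71% and, with another seed, 11.5%. The median r with replication genes was 0.15 at 4000 UMIs. Of the 40 members past the filter, 6 were 2-fold higher in library 3 than in library 1, beside 3.97% of all genes past it. All of the 6 but Cks1b held 2 UMIs or fewer in library 1. With a pseudocount of 5 CPM the count was 2 members beside 2.39% of genes, and by a 4-fold rule 1 member beside 0.873%.

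No paired analysis was possible because each condition has 1 library and no label ties a suffix to a condition. Every share of cells depends on the depth to which cells were thinned, so the shares hold for 2000 UMIs only. Library 1, with 1343055 UMIs, has a limit of 2.23 CPM for a count of 0, and 33 of the members had 3 UMIs or fewer there. Animals, preparation and condition cannot be told apart between libraries.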

Other observations

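In the cells of library 2 (3569), 8825 genes were ranked by how closely their thinned counts went with the summed members. With the member, other mitosis and replication lists then set aside, the 10 closest were chromatin and tubulin genes for the most part. Hist1h2ap, a histone H2A gene, led with a Pearson r of 0.53, followed by Hmgb2 (0.32), H2afz (0.32), Tuba1b (0.29), Stmn1 (0.28), Hmgn2 (0.24), H2afx (0.22), Hist1h2ae (0.21), Ube2s (0.21) and 2810417H13Rik (0.21). Hist1h2ap had a mean of 0.121 UMIs in cells without a member UMI, 0.146 with 1 to 2, 0.189 with 3 to 5, 0.816 with 6 to 10 and 2.54 with over 10. Its summed level was 36.5, 241 and 46.1 CPM in libraries 1, 2 and 3. Stmn1, a regulator of microtubule assembly, had 38.7, 617 and 72.6 CPM, and 2810417H13Rik had 6.70, 136 and 5.21 CPM. Ube2s, the second ubiquitin-conjugating enzyme of the anaphase-promoting complex, had 94.6, 268 and 157 CPM. Tuba1b and the H2A histones have near-identical relatives in the genome, so how their UMIs were assigned is uncertain. At the other end stood Cst3 (−0.25), Malat1 (−0.23) and P2ry12 (−0.17), a microglia marker that went from 5.21 to 3.54 UMIs between cells with none and with over 10. Each cell was thinned to 1 total, so a gene that takes more UMIs leaves fewer to others.

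The low libraries held a few cells rich in members. Library 1 had 1 cell with at least 6 member UMIs at equal depth, which held 22 UMIs of 14 members and 21 replication UMIs. Before thinning it had 39 of the 187 member UMIs of that library (20.9%). Library 3 had 4 such cells, with 6 to 14 member UMIs of 5 to 13 members and 9 or 10 replication UMIs each, holding 154 of its 3489 member UMIs (4.41%). None of the 5 had a barcode shared with another library.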
